A study of Mus musculus with 8 samples.

Results

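Cytosolic ribosomal protein genes were taken from the count table by symbol: Rpl or Rps followed by a number and, in some, a suffix such as a, x or l, together with the stalk genes Rplp0, Rplp1 and Rplp2 and the gene Rpsa. This gave 85 of the 24976 symbols in the table, 52 of the large subunit and 33 of the small subunit, and all 85 passed the filter on low counts. Other genes that encode ribosomal proteins, such as Fau, Rack1 and Rpl36al, and most pseudogenes have other symbols and are not among the 85. The annotated pseudogenes Rps4l and Rpl32l match the symbol rule and are among them. Bulk RNA sequencing had been done on CD8+ T cells of mice, isolated naïve and activated in culture with antibodies against CD3 (2 µg/ml) and CD28 (1 µg/ml) in the presence of IL-2 (10 ng/ml). Cells labelled dKO came from Cd8Cre mice with floxed alleles of Nr4a1 and Nr4a2, which encode nuclear receptors induced by the T cell receptor. Cells labelled WT came from wild-type littermates, for which the labels state neither Cre nor floxed alleles. The 8 libraries form 4 groups of 2: dKO at 24 h, WT at 24 h, dKO at 48 h and WT at 48 h.

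Each ribosome is built from ribosomal RNA and a large set of ribosomal proteins, most of which are present in a single copy per particle and are needed in equal numbers. The large subunit forms peptide bonds and holds the exit tunnel, and the small subunit reads the mRNA. Ribosomal protein mRNAs begin with a run of pyrimidines, through which the kinase mTOR and the RNA-binding protein LARP1 control their translation, and activated T cells make more ribosomes as they grow and divide. A few ribosomal proteins have near copies with restricted expression, such as RPL10L in male germ cells and RPL3L in muscle.

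Start-site windows of 5 members are shown because they carry the pyrimidine runs or the ETS motif that many members share. Those of Rpl10 and its copy Rpl10l are shown as examples that carry none of the exact forms marked in capitals below. Windows of other members, such as Rps6, Rps9 and Rps4x, also lack these exact forms. Those of Rps6 and Rps9 do hold other runs of pyrimidines near the start. In the last 75 bases of the longer windows described below, CTTTCC was in 25% of member windows and CTCTTTC in 17.1%, so their lack near the start is common. These 75 bases begin and end further downstream than the stretches shown. Each stretch shown runs from 50 bases before to 25 bases after the annotated start (RefSeq, GRCm38.p6), 5′ to 3′ on the strand of the gene. Capitals mark the pyrimidine run CTCTTTC, the related run CTTTCC or the ETS core CCGGAAG.
Rpl28, chr7:4792915-4792989, plus strand: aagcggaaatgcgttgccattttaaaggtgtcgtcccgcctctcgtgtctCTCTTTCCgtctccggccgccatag
Rpl35, chr2:39005107-39005181, minus strand: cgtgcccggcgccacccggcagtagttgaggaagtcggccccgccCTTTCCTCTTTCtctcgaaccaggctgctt
Rpl38, chr11:114668530-114668604, plus strand: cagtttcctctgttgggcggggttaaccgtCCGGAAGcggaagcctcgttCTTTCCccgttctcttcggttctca
Rps27, chr3:90213624-90213698, minus strand: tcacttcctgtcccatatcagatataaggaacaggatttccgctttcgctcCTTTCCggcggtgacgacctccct
Rps27l, chr9:66946036-66946110, plus strand: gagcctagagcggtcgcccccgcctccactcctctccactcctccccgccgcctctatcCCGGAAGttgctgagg
Rpl10, chrX:74270766-74270840, plus strand: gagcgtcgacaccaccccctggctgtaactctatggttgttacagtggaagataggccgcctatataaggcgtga
Rpl10l, chr12:66284377-66284451, minus strand: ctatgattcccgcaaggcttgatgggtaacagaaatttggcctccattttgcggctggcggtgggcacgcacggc

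RefSeq windows of 300 bases, from 250 before to 50 after a start, were matched for 64 of the 85 members, with 76 windows in all. CTTTCC was in 28 of the 76 windows (36.8%), against 14.1% of all 32851 windows of that length. CTCTTTC was in 15 (19.7%), against 3.99%, and CTTTTC in 15 (19.7%), against 11.4%. These 3 forms were searched on the strand of the gene, and CTTTCC shares letters with CTCTTTC where a C follows it, as in Rpl28. Large-subunit windows held CTTTCC in 44.7% and small-subunit windows in 24.1%. CCGGAAG, the core bound by ETS factors, was searched on both strands and was in 27 windows (35.5%), against 8.86%. TATAAA on the strand of the gene was in 7 (9.21%), against 8.32%. A match is a description of these letters and not of a bound factor.

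Sequence is shown for 4 near copies, each above its partner: Rps4l and Rpl10l because they passed the test at 48 h, and Rpl22l1 and Rps27l because their ratios to their partners are described further on. For the pseudogene Rps4l it is the stretch of its transcript that aligns to Rps4x, and for the others it is coding sequence, with capitals where the aligned bases differ (GENCODE M21, GRCm38). The windows of Rps4l, Rps4x, Rpl10l and Rpl10 start at the ATG, as do those of Rps27l and Rps27, and the window of Rpl22 covers its coding bases 67 to 141.
Rps4l, chromosome 6: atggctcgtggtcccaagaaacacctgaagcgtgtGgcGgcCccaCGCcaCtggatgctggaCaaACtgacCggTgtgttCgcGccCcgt
Rps4x, chromosome X: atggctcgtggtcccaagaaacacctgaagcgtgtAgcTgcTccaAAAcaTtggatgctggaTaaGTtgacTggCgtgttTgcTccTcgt
Rpl10l, chromosome 12: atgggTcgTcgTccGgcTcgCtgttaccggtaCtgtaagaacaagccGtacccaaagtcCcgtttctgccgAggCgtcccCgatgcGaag
Rpl10, chromosome X: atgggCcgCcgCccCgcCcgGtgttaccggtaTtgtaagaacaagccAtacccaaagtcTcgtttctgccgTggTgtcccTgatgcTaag
Rpl22l1, chromosome 3: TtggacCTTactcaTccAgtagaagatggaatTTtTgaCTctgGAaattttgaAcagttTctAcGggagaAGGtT
Rpl22, chromosome 4: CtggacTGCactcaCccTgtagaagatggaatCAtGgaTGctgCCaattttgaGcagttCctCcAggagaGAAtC
Rps27l, chromosome 9: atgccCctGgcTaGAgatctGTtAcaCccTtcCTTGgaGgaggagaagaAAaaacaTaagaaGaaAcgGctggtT
Rps27, chromosome 3: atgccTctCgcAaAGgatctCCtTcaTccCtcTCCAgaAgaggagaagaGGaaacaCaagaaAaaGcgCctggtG

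The libraries held 5000952 to 21686236 counts, and the libraries differed in more than genotype. Xist, which coats and silences the inactive X of females, was at 0.655 to 1.67 counts per 1e6 (CPM, TMM-scaled) in the 4 dKO libraries and at 386 to 816 CPM in the 4 WT libraries, so every genotype comparison also sets male-type against female-type libraries. Nr4a2 was at 142 and 136 CPM in the libraries labelled dKO at 24 h, against 59.7 and 49.1 CPM in WT, and at 75.3 and 77.1 CPM at 48 h, against 24.5 and 33.1 CPM in WT. Nr4a1 was at 532 and 505 CPM against 525 and 275 CPM in WT at 24 h, and at 633 and 668 CPM against 879 and 777 CPM in WT at 48 h, so neither gene gives a check of the deletion by its counts, and the genotypes are named as labelled. Marker sums are given without TMM scaling, for which the factors at 48 h were 0.968 and 0.975 in dKO and 0.836 and 0.878 in WT. So given, the 5 CD8 T cell markers found in the table summed to 1077 to 2180 CPM, lowest at 48 h in WT. At 48 h they summed to 1603 to 1667 CPM in dKO against 1077 to 1327 CPM in WT. The summed markers of CD4 T, B, myeloid, NK and red, platelet or stromal cells stayed between 0.922 and 11.3 CPM per list, with Lyz2, Ncr1, Hbb-bs, Hba-a1 and Col1a2 at 0 counts. Myeloid markers, 4 of 5 in the table, summed to 4.93 to 5.03 CPM in dKO at 48 h, against 9.5 to 11.3 CPM in WT. The part of these differences in the results was not tested.

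Ribosomal protein genes took a lower share of the raw counts in the WT libraries at 48 h than in the other 6. With TMM scaling, which the main tests used, WT 48 h replicate 2 stood lowest, followed by WT 24 h replicate 2. The 52 large-subunit genes held 6.73% and 7.06% of the counts in the libraries labelled dKO at 24 h, against 6.57% and 6.32% in WT. At 48 h they held 7.27% and 7.24% in dKO, against 5.91% and 3.84% in WT. The 33 small-subunit genes held 5.35% and 5.65% in dKO at 24 h against 5.33% and 4.89% in WT, and 5.58% and 5.35% in dKO at 48 h against 4.53% and 2.84% in WT. By these raw shares both WT libraries at 48 h lay below the other 6 in both subunits, and replicate 2, the most deeply sequenced library, lay furthest below. After TMM scaling the 85 members summed to 132727 and 129113 CPM in dKO at 48 h against 124919 and 76107 CPM in WT, and to 109168 and 117845 CPM in dKO at 24 h against 115223 and 95714 CPM in WT. WT 48 h replicate 1 was then above all 4 libraries at 24 h, and WT 48 h replicate 2 was below the other 7. Its share over both subunits was 6.68% (95% Wilson interval 6.67 to 6.69%), against 10.4% (10.42 to 10.46%) in replicate 1. Large-subunit counts were 1.23 to 1.35 times the small-subunit counts in each of the 8 libraries. Intervals cover counting error only. In bulk RNA, fewer cells of a type and less RNA per cell cannot be told apart.

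**Figure D1:**
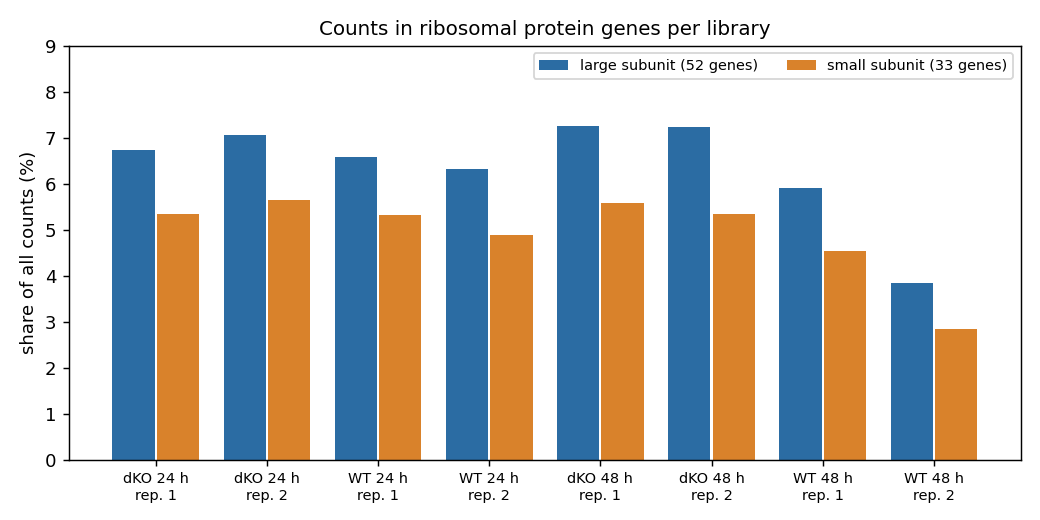
Share of all counts (percent) in the 52 large-subunit genes (blue bars) and the 33 small-subunit genes (orange bars) in each library. The 2 WT libraries at 48 h hold the lowest shares, 5.91% and 3.84% for the large subunit and 4.53% and 2.84% for the small subunit.

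Members moved together between replicates of one group, which sets the error of every comparison below. In WT at 48 h, replicate 2 was below replicate 1 in 51 of 52 large-subunit and 32 of 33 small-subunit genes in CPM, where 51.7% of all 12742 tested genes were lower. The median absolute log2 difference between these replicates was 0.831 over the 85 members and 0.371 over all genes. In WT at 24 h, replicate 2 was lower in 46 large-subunit and 31 small-subunit genes, with medians of 0.423 and 0.198. The libraries labelled dKO were closer, with medians of 0.174 over members and 0.160 over all genes at 24 h and 0.083 and 0.152 at 48 h. In dKO at 24 h, replicate 2 was lower in 10 large-subunit and 6 small-subunit genes, where 49.9% of all genes were lower. In dKO at 48 h it was lower in 34 and 24, where 50.6% of all genes were lower.

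**Figure D2:**
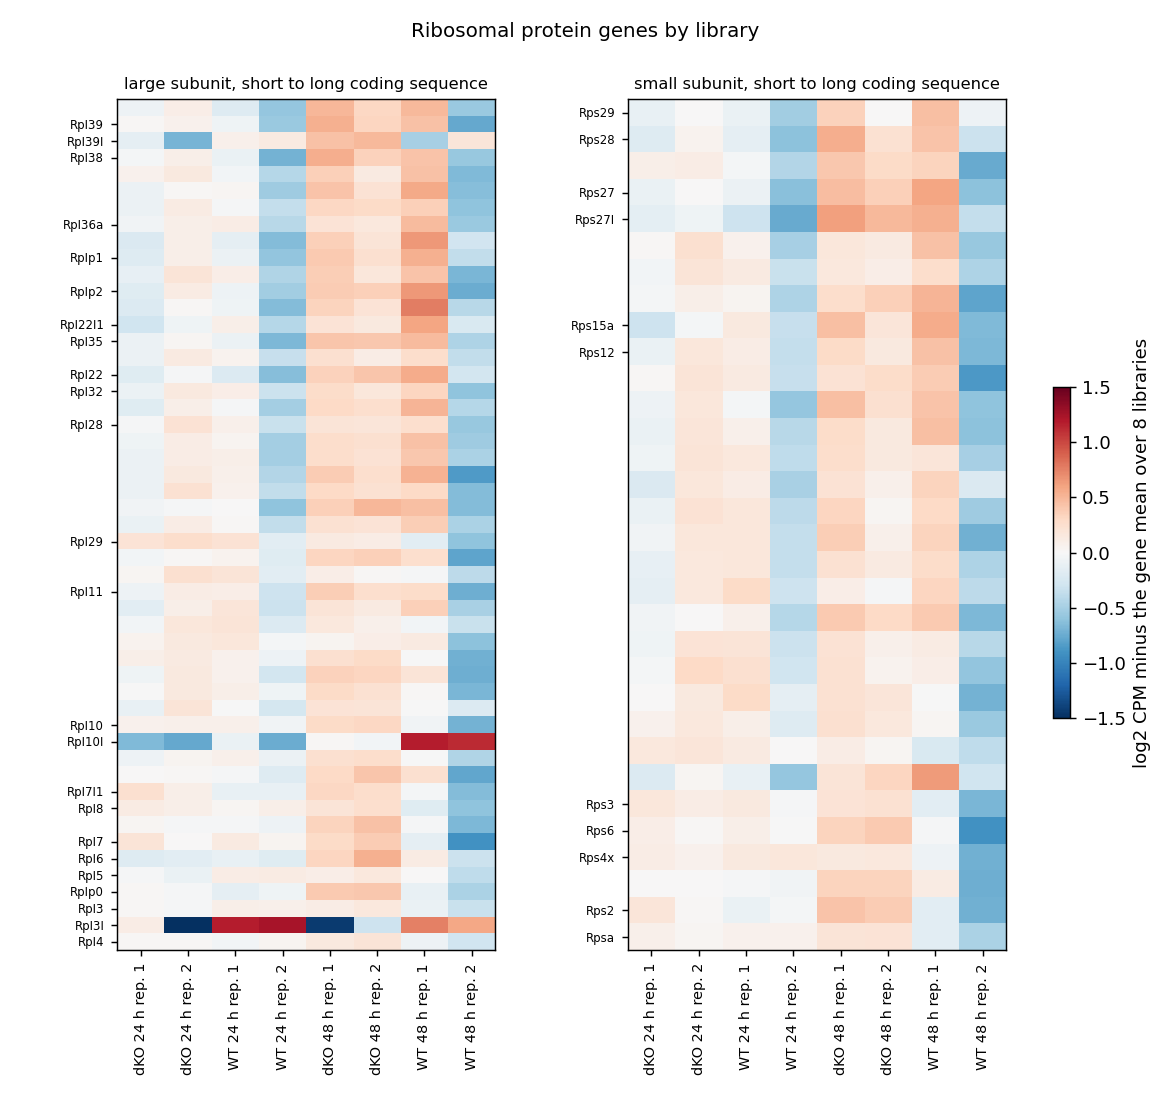
Log2 TMM-scaled CPM of 83 protein-coding members in each library, minus the mean of the gene over the 8 libraries, with large-subunit genes on the left and small-subunit genes on the right, ordered from short to long coding sequence (the pseudogenes Rps4l and Rpl32l are left out, colours saturate at 1.5, and only genes named in the text are labelled). WT 48 h replicate 2 is blue in nearly every gene of both subunits, and WT 24 h replicate 2 is blue mainly in short genes. Rpl10l, and Rpl3l with its few counts, depart from most by being red in both WT libraries at 48 h.

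At 24 h, ribosomal protein genes of either subunit did not pass the test between the genotypes. The median log2 fold change (dKO over WT) was 0.14 over the 52 large-subunit genes and 0.15 over the 33 small-subunit genes, against 0.01 over all tested genes, and 73 of 85 values were above 0. Of the members 0 were called higher and 0 lower (edgeR quasi-likelihood F test, Benjamini-Hochberg adjusted p below 0.05), where 0.361% of all tested genes were called higher and 0.0706% lower. At an unadjusted p below 0.05, 1 was higher (Rps4l) and 1 lower (Rpl3l), where 3.92% of all genes were higher and 3.05% lower, and DESeq2 called 0. Rps4l was called higher without WT 48 h replicate 1 or 2 (1.76% or 1.85% of all). Both libraries labelled dKO lay above both WT libraries for 17 members (24.3% of all tested genes did) and below them for 5 (20.6% of all). The sign of the medians rested on WT 24 h replicate 2: without it they were -0.03 for the large and -0.04 for the small subunit with 34 members above 0, and without WT 24 h replicate 1 they were 0.33 and 0.42.

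At 48 h, Rps4l was higher and Rpl10l lower in the libraries labelled dKO, and the other 83 members did not pass. Medians were 0.31 for the large subunit and 0.33 for the small subunit, against -0.03 over all tested genes, and 79 of 85 values were above 0. Among all tested genes 3.19% were called higher and 8.04% lower. Both libraries labelled dKO lay above both WT libraries for 31 members, 21 large and 10 small (28.3% of all genes did), and below both for 2 (28.6% of all). At an unadjusted p below 0.05, 13 members were higher and 1 lower, where 14% of all genes were higher and 19.1% lower. DESeq2 called 9 members higher, where it called 2.36% of all genes higher.

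The calls of Rps4l and Rpl10l held without either WT library at 48 h, but the values of the other members turned on which of these libraries was set against dKO. Without WT 48 h replicate 1, with replicate 2 as the lone WT library and assumed to vary like the other groups, 44 large-subunit and 29 small-subunit genes were called higher and 1 lower, where 23.3% of all tested genes were called higher and 25.9% lower. The medians were then 0.76 and 0.86. Without WT 48 h replicate 2 the medians were -0.05 in both subunits, 38 of 85 values were above 0, and Rps4l and Rpl10l alone were called (2.16% of all higher and 6.59% lower). Without WT 24 h replicate 1 the medians were 0.32 and 0.34, and without WT 24 h replicate 2 they were 0.32 and 0.33. Without either dKO 48 h replicate the calls of Rps4l and Rpl10l were lost, as were most calls among all tested genes. The medians were then 0.30 and 0.27 without dKO 48 h replicate 1, and 0.34 and 0.40 without dKO 48 h replicate 2. Under library-size scaling, which moved the median of all genes at 48 h to 0.15, 19 members were called higher, with medians of 0.51 and 0.52 and with 12.7% of all tested genes called higher.

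**Figure D3:**
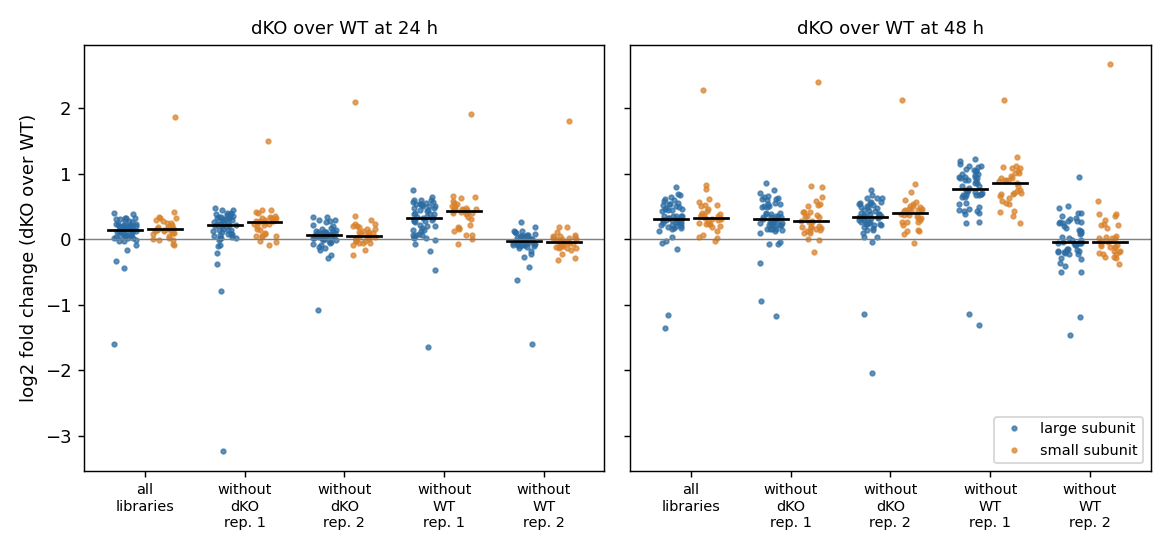
Log2 fold changes (dKO over WT) of the members at 24 h (left) and 48 h (right) in the fit of all 8 libraries and in fits without a single library of that time, with large-subunit genes in blue, small-subunit genes in orange and a black line at each median. At 48 h the medians are 0.31 and 0.33 with all libraries, 0.76 and 0.86 without WT replicate 1, and -0.05 in both subunits without WT replicate 2.

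Over both times together Rps4l was called higher and Rpl10l lower, with medians of 0.24 for the large and 0.25 for the small subunit and with 2.28% of all tested genes called higher and 5.52% lower. In the interaction, which asks whether the genotype difference changed between the times, 0 members were called, as were 0 of all tested genes (0% higher and 0% lower). At an unadjusted p below 0.05, 0 members were higher and Rpl10l was lower (3.42% and 8.93% of all genes), and DESeq2 called 0. The interaction value of Rpl10l was -0.83 on the log2 scale with all libraries. With 1 library left out it ran from -1.17 (without WT 24 h replicate 1) to -0.52 (without WT 24 h replicate 2). Without WT 48 h replicate 2 the medians over both times were 0.08 for the large and 0.07 for the small subunit. Without WT 48 h replicate 1, 67 members were called higher over both times (20.3% of all tested genes) and 36 in the interaction (11.6% of all).

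From 24 to 48 h, ribosomal protein genes stood higher at the later time in the cells labelled dKO, but did not pass the test in the fit of all libraries. The medians (48 h over 24 h) were 0.25 for the large and 0.16 for the small subunit, against -0.01 over all tested genes, with 79 of 85 values above 0. Under library-size scaling, which moved the median of all genes to -0.18, they were 0.09 and -0.01. Of the members 0 were called in either direction, where 1.76% of all tested genes were called higher and 1.88% lower, an unadjusted p below 0.05 was reached by 3 higher and 0 lower (11.1% and 12.2% of all genes), and DESeq2 called Rpl10l and Rpl6 higher (2.88% of all genes). Both libraries at 48 h lay above both at 24 h for 60 members, 42 large and 18 small (32.8% of all tested genes did), and below them for 2 (33.5% of all). When the spread was taken from these 4 libraries alone, 34 large-subunit and 13 small-subunit genes were called higher and 0 lower, where 19.6% of all tested genes were called higher. Without WT 48 h replicate 1, 9 were called higher (13.4% of all), without WT 48 h replicate 2, 7 (12.6% of all), and without either WT 24 h replicate, 1 (Rpl10l). In the fit of these 4 libraries the spread of the WT libraries, which differ more between replicates, no longer entered.

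In WT cells the medians of the members between the times were near 0. The medians (48 h over 24 h) were 0.04 for the large and 0.02 for the small subunit, against 0.00 over all tested genes, and Rpl10l was the 1 member called, higher at 48 h, where 7.87% of all tested genes were called higher and 3.5% lower. Both libraries at 48 h lay above both at 24 h for 3 members (22.7% of all) and below them for 13 (24.4% of all). Without WT 48 h replicate 2, 31 members were called higher (13.8% of all), and without WT 48 h replicate 1, 26 were called lower (14.6% of all). Under library-size scaling, which moved the median of all genes to -0.36, 20 members were called lower (20.7% of all) and the medians were -0.32 and -0.33. The time comparisons in the 2 genotypes share no library, and the interaction above is the test of their difference.

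Among the large-subunit genes, Rplp0 and Rplp1 of the stalk, which recruits translation factors to the ribosome, had some of the highest levels. Rplp0, which anchors the stalk, was at 3741 and 3649 CPM in the libraries labelled dKO at 24 h, against 3359 and 3540 CPM in WT, and at 4857 and 4898 CPM in dKO at 48 h, against 3432 and 2657 CPM in WT. The groups did not overlap at either time. Its log2 fold change (dKO over WT) was 0.10 at 24 h and 0.68 at 48 h (SE 0.213, adjusted p = 0.0676 in edgeR). Rplp1, a flexible stalk protein, was at 2334 and 2845 CPM in dKO against 2509 and 1770 CPM in WT at 24 h, and at 3496 and 3149 CPM in dKO against 3862 and 2069 CPM in WT at 48 h. Rplp2, its partner in the stalk, was at 638 and 788 CPM in dKO against 688 and 504 CPM in WT at 24 h, and at 942 and 924 CPM in dKO against 1138 and 430 CPM in WT at 48 h. For both flexible stalk genes the dKO values at 48 h lay between the WT replicates. Rplp1 had the highest mean level per kb of transcript among the 85, 5519.6 CPM per kb, followed by the small-subunit gene Rps12 at 5478 CPM per kb. This ranking uses the length of a single annotated transcript per gene and assumes that counts span it, which is not known here.

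Both patterns were seen in other large-subunit genes. Rpl4, whose protein lines the exit tunnel, was at 3379 and 3498 CPM in dKO at 48 h, against 2883 and 2478 CPM in WT (log2 fold change 0.36, adjusted p = 0.229). Rpl7 had 2557 and 2719 CPM in dKO at 48 h, against 1912 and 1114 CPM in WT, a log2 fold change of 0.80 (SE 0.259, adjusted p = 0.0727). At 24 h its values overlapped, 2398 and 2099 CPM in dKO against 2289 and 2156 CPM in WT. Rpl5 and Rpl11 encode proteins that bind MDM2 when ribosome assembly is disturbed. Rpl5 was at 2470 and 2553 CPM in dKO at 48 h, against 2315 and 1764 CPM in WT (0.30), and Rpl11 at 2088 and 1926 CPM in dKO, against 1966 and 972 CPM in WT (0.45). Rpl5 did not overlap between the genotypes at 48 h, Rpl11 did, and neither passed at either time.

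Among the small-subunit genes, Rps2, whose protein sits near the entry of the mRNA channel, came closest to the threshold apart from Rps4l. It had 4570.2 and 4423 CPM in the libraries labelled dKO at 48 h, against 3026 and 2055 CPM in WT, a log2 fold change of 0.82 (SE 0.235, adjusted p = 0.0515). It overlaps the antisense gene Snhg9, and the strand rule of the counting is not given in the sources used here. Rps6, whose protein is phosphorylated by the S6 kinases downstream of mTOR, was at 1532 and 1594 CPM in dKO at 48 h against 1203 and 647 CPM in WT, with a log2 fold change of 0.76. Rpsa, also known as a laminin receptor, was at 3955 and 3997 CPM in dKO at 48 h against 3111 and 2497 CPM in WT, with a log2 fold change of 0.50. The dKO and WT values of Rps2, Rps6 and Rpsa did not overlap at 48 h, and at 24 h the log2 fold changes were 0.16, 0.02 and -0.01. Rps29, the small-subunit gene with the lowest log2 fold change at 48 h (-0.03, or 0.16 under library-size scaling), was at 716 and 568 CPM in dKO against 776 and 538 CPM in WT, so its groups overlapped.

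Between the times, members with small p apart from the near copies included Rpl6 and Rps28 in dKO and, lower at 48 h, Rpl8, Rps3 and Rps4x in WT. None of these passed. In WT, 1 of the 77 members that are not near copies reached an unadjusted p below 0.05 higher at 48 h, and 0 lower. Of all 12742 tested genes, 1778 did so higher and 1353 lower. Rpl6, a large-subunit protein that is recruited to DNA damage, was at 2490.4 and 2889 CPM in dKO at 48 h, against 1745 and 1788 CPM in dKO at 24 h, with no overlap and a log2 difference (48 h over 24 h) of 0.61 (SE 0.214, adjusted p = 0.138). In WT it was at 2180 and 1590 CPM at 48 h, against 1842 and 1754 CPM at 24 h, and the times overlapped. Rps28 was at 475 and 382 CPM in dKO at 48 h, against 286 and 337 CPM in dKO at 24 h, a log2 difference of 0.46 (adjusted p = 0.316). Rpl8, whose protein lies near the peptidyl transferase centre, was at 2009 and 1492 CPM in WT at 48 h, against 2326 and 2421 CPM in WT at 24 h, with no overlap and a log2 difference of -0.44 (adjusted p = 0.231). Rps3, which forms part of the mRNA entry site, was at 2463 and 1719 CPM in WT at 48 h, against 3047 and 2725 CPM in WT at 24 h, a log2 difference of -0.47 (adjusted p = 0.241). Rpl29 was among the few that stood lower at the later time in dKO, with a log2 difference of -0.11.

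Rps4l, annotated in GENCODE as a transcribed processed pseudogene of Rps4x on chromosome 6 (148354656 to 148355598, plus strand), was called higher at 48 h and over both times. It had 54 and 21 counts in the libraries labelled dKO at 24 h, against 10 and 9 counts in WT, and 27 and 37 counts in dKO at 48 h, against 4 and 19 counts in WT. In CPM it was at 5.89 and 3.89 in dKO against 1.40 and 1.32 in WT at 24 h, and at 4.01 and 4.80 in dKO against 0.682 and 0.998 in WT at 48 h, with no overlap at either time. On the log2 scale it was 1.87 higher at 24 h (SE 0.363, adjusted p = 0.0791), 2.27 higher at 48 h (SE 0.361, adjusted p = 0.0146) and 2.07 higher over both times (SE 0.256, adjusted p = 0.00353). At 24 h it was called without WT 48 h replicate 1 (adjusted p = 0.0119) or replicate 2 (0.0111). The call at 48 h was lost without dKO 48 h replicate 1 (adjusted p = 0.137) or replicate 2 (0.191), and the call over both times held without any single library (0.0001 to 0.0378).

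Per 10000 counts of Rps4x, the X-linked small-subunit gene, Rps4l had 19.2 and 13.1 counts in dKO at 24 h against 4.45 and 4.14 in WT, and 12.7 and 15.2 in dKO at 48 h against 2.53 and 5.81 in WT. Rps4x itself was at 3062 and 2982 CPM in dKO against 3149 and 3185 CPM in WT at 24 h, and at 3155 and 3159 CPM in dKO against 2698 and 1719 CPM in WT at 48 h. The Rps4l transcript matches the Rps4x coding sequence at 79.8% of aligned bases, with a longest shared run of 35 bases, so reads within such runs could be counted for either gene. The gene lies inside Tmtc1 on the opposite strand. The 4 X-linked members (Rpl10, Rpl36a, Rpl39 and Rps4x) had a median log2 fold change of 0.10 at 24 h and 0.50 at 48 h, against 0.15 and 0.32 for the 81 members off the X chromosome.

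Rpl10l, a single-exon copy of Rpl10 on chromosome 12 (66283379 to 66284401, minus strand), stood against most other members, lower in dKO. It was at 338 and 316 CPM in the libraries labelled dKO at 24 h, against 499.9 and 322 CPM in WT, and at 544 and 523 CPM in dKO at 48 h, against 1214 and 1164 CPM in WT. The genotypes overlapped at 24 h and did not at 48 h. The log2 fold changes (dKO over WT) were -0.33 at 24 h (adjusted p = 0.878), -1.16 at 48 h (SE 0.216, adjusted p = 0.0152) and -0.74 over both times (SE 0.152, adjusted p = 0.0257). In WT it was 1.53 higher on the log2 scale at 48 h than at 24 h (SE 0.218, adjusted p = 0.00258). The genotype call at 48 h was lost without dKO 48 h replicate 1 (adjusted p = 0.139) or replicate 2 (0.191), that over both times without any single dKO library (0.121 to 0.154), and that in WT when only the groups compared entered the fit (0.0663).

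Rpl10 itself, whose protein joins the large subunit late in its assembly, was at 2364 and 2383 CPM in dKO against 2394 and 2188 CPM in WT at 24 h, and at 2774 and 2815 CPM in dKO against 2191 and 1394 CPM in WT at 48 h. At 48 h the copy therefore had 0.196 and 0.186 counts per Rpl10 count in dKO, against 0.554 and 0.835 in WT. The coding sequences match at 84.8% of 645 bases, with a longest shared run of 23 bases. In each of the 8 libraries Rpl10l had a nearly fixed ratio of 0.214 to 0.223 counts per count of Csrp3, a muscle LIM protein gene that was chosen after the values were seen. Csrp3 was at 2493 and 2400 CPM in dKO at 48 h, against 5496 and 5310 CPM in WT. Of 9215 genes with a mean of at least 50 counts, 81 had a ratio to Csrp3 whose highest value was at most 1.1 times its lowest, and Rpl10l was the 1 member among them. The smallest spread of the other members was 3.67 times. What these genes share was not tested.

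Rpl22l1 was low relative to Rpl22 in the libraries labelled dKO. Rpl22 is needed for development of T cells with alpha-beta receptors in mice and is known to hold its copy Rpl22l1 down. The ratio of Rpl22l1 to Rpl22 counts was 0.741 and 0.785 in dKO at 24 h, against 0.988 and 0.933 in WT, and 0.733 and 0.669 in dKO at 48 h, against 0.825 and 0.833 in WT. The genotypes did not overlap at either time. The ratio was not tested. Neither gene passed: Rpl22 had log2 fold changes of 0.31 at 24 h and 0.18 at 48 h, and Rpl22l1 of -0.03 and -0.06, the last being 0.13 under library-size scaling. The coding sequences match at 69.3% of aligned bases.

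Rps27l, a copy of Rps27 known as a target of p53, had counts at the level of Rps27 itself. The ratio of Rps27l to Rps27 counts was 1.11 and 1.1 in dKO at 24 h, against 0.994 and 1.05 in WT, and 1.28 and 1.26 in dKO at 48 h, against 1.11 and 1.37 in WT, so the genotypes overlapped at 48 h. Rps27l was at 318 and 338 CPM in dKO against 285 and 208 CPM in WT at 24 h, and at 539 and 493 CPM in dKO against 512 and 274 CPM in WT at 48 h. Its log2 fold changes of 0.41 at 24 h and 0.39 at 48 h did not pass. From 24 to 48 h it was 0.65 higher in dKO (adjusted p = 0.192) and 0.67 higher in WT (adjusted p = 0.163), the smallest unadjusted p of the small subunit in both.

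Of the remaining near copies, Rpl3l and Rpl39l were close to the floor, Rpl32l is nearly identical to its partner, and Rpl7l1 had a level of its own. Rpl3l, the muscle copy of Rpl3, had 8 and 1 counts in dKO at 24 h against 13 and 13 in WT, and 2 and 5 counts in dKO at 48 h against 8 and 23 in WT. In CPM its genotypes did not overlap at either time, and its log2 fold change over both times was -1.48 (SE 0.419, adjusted p = 0.0599). Rpl39l, known from male germ cells, had 4 to 26 counts per library. Rpl32l, a processed pseudogene that lies within Map7 on the same strand, had 240 to 827 counts, but shares 95.8% of its bases with Rpl32 and a run of 94 identical bases. Rpl7l1 had 180 and 163 CPM in dKO against 141 and 141 CPM in WT at 24 h, and 189.8 and 184 CPM in dKO against 149 and 97.0 CPM in WT at 48 h, with no overlap, and its log2 fold change over both times was 0.44 (SE 0.139, adjusted p = 0.0797).

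**Figure D4:**
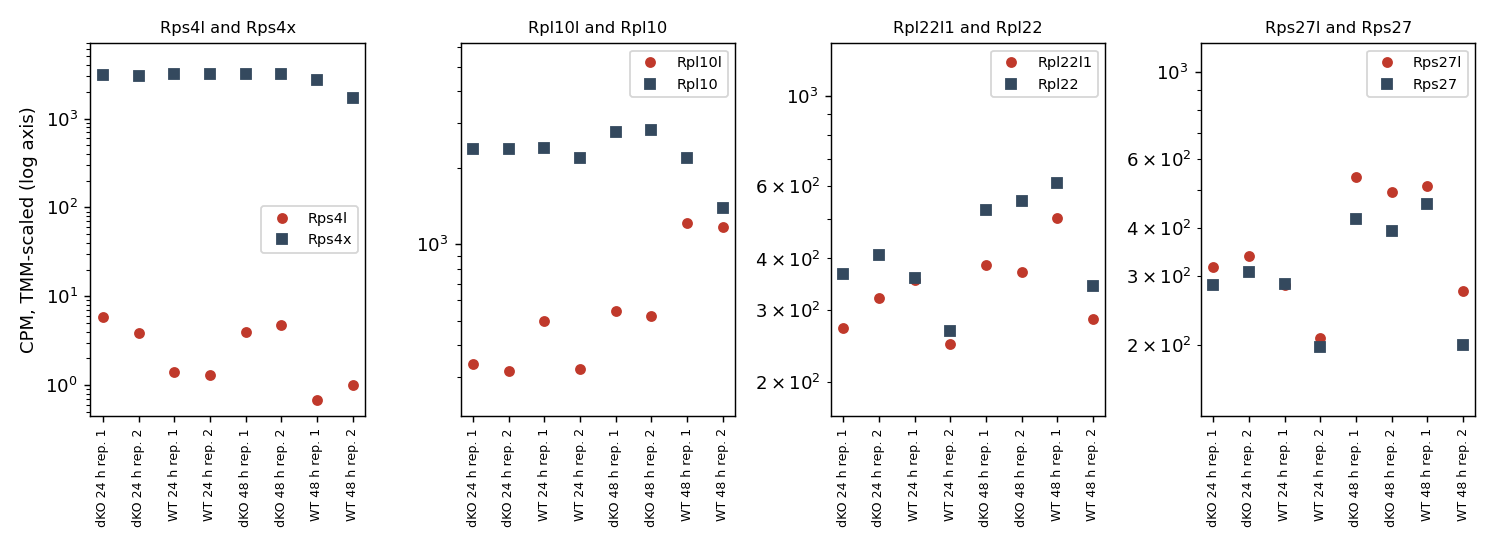
TMM-scaled CPM (log axis) of 4 near copies (red circles) and their partner genes (dark squares) in each library. Rps4l lies at 3.89 to 5.89 CPM in dKO and at 0.682 to 1.40 CPM in WT, Rpl10l reaches 1214 and 1164 CPM in WT at 48 h, and Rpl22l1 lies closer to Rpl22 in WT than in dKO.

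How far a member moved between libraries went with the length of its coding sequence. Of the 81 protein-coding members with a mean of at least 1000 counts, 26 had coding sequences under 400 bases, 31 of 400 to under 600 and 24 of 600 or more. In WT 24 h replicate 2 the median deviation from the mean of each gene was -0.52 for the short, -0.35 for the middle and -0.05 for the long class. In WT 48 h replicate 1 it was 0.48, 0.30 and -0.03, and in WT 48 h replicate 2 the classes were close at -0.56, -0.60 and -0.63. In the libraries labelled dKO the classes lay between -0.10 and 0.16 at 24 h and between 0.16 and 0.36 at 48 h.

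The medians of the comparisons also differed between the classes, in different orders. The median log2 fold change between the genotypes (dKO over WT) at 24 h was 0.27 in the short, 0.15 in the middle and 0.05 in the long class, and at 48 h it was 0.25, 0.30 and 0.54. From 24 to 48 h the medians were 0.36, 0.16 and 0.23 in dKO and 0.34, 0.01 and -0.28 in WT. Across the 81 genes, which are not independent replicates and share these libraries, the correlation of log2 coding length with the genotype difference was r = -0.69 at 24 h and 0.29 at 48 h, against -0.18 and -0.51 across 8551 genes of the table. Between the WT replicates (replicate 2 minus replicate 1) it was 0.68 at 24 h and 0.57 at 48 h, against 0.08 and 0.64 across the 8551 genes. Between the dKO replicates it was -0.46 at 24 h and 0.62 at 48 h, against 0.09 and -0.02. The part of gene length in the genotype differences was not tested.

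**Figure D5:**
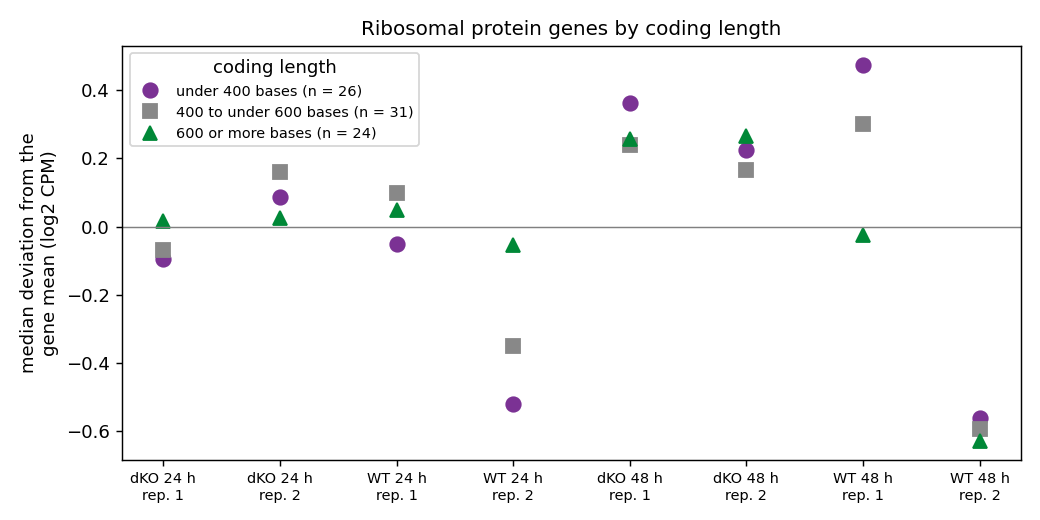
Median deviation (log2 TMM-scaled CPM) of 3 coding-length classes of ribosomal protein genes from the mean of each gene over the 8 libraries. In WT 24 h replicate 2 and WT 48 h replicate 1 the short class (purple) and the long class (green) lie far apart, at -0.52 and -0.05 and at 0.48 and -0.03, while in WT 48 h replicate 2 the classes lie together at -0.56 to -0.63.

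Introns of ribosomal protein genes often carry snoRNAs, which guide modification of ribosomal RNA. By the GENCODE M21 annotation, 20 of 51 protein-coding large-subunit genes and 10 of 32 small-subunit genes hosted a snoRNA on the same strand, 30 of 83 in all (36.1%), against 1.42% of the 16536 protein-coding genes in the table. Reads of these snoRNAs and of other genes that overlap a member could have been counted for either.

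Mitochondrial ribosomal proteins, which build the separate ribosome of mitochondria, differed between the genotypes at 48 h. Of 78 tested, 18 were called higher and 2 lower in dKO, with a median log2 fold change of 0.49, beside 3.19% and 8.04% of all tested genes. Mrpl2 rose by 0.69 (adjusted p = 0.0162) and Mrps34 by 0.70 (adjusted p = 0.0219). Mrpl46 fell by 1.08 and Mrpl27 by 1.03. Their ratios to Csrp3 over the 8 libraries were 0.547 to 0.579 and 0.285 to 0.328. The highest ratio was 1.06 times the lowest for Mrpl46 and 1.15 times for Mrpl27, which is beyond the limit of 1.1 used above. The counts were 71 and 2 without WT 48 h replicate 1, 7 and 2 without replicate 2, 2 and 2 without either WT 24 h replicate, and 0 and 0 without any single dKO library. At 24 h 0 of the 78 passed (median 0.16), and an unadjusted p below 0.05 was reached by 3 higher and 0 lower (3.92% and 3.05% of all tested genes). For this list and those below, the shares of all tested genes called without a WT 48 h replicate are those given for the members at 48 h. Calls among all tested genes at 48 h also fell when a dKO library or a WT 24 h replicate was left out.

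Among ribosome biogenesis factors, 7 of 64 rose and 3 fell in dKO at 48 h, with a median of 0.14, beside 3.19% and 8.04% of all tested genes. Rrp9, a subunit of the U3 snoRNP, rose by 0.90 (adjusted p = 0.017), and Rcl1, a factor in pre-rRNA processing, by 0.75 (adjusted p = 0.0188). Lsg1, a GTPase of late large-subunit assembly, fell by 1.00, Rexo4 by 1.05 and Heatr3 by 0.67. The ratio to Csrp3 was 0.110 to 0.145 for Lsg1, 0.137 to 0.161 for Rexo4 and 0.0467 to 0.100 for Heatr3. The counts were 24 and 15 without WT 48 h replicate 1, 7 and 4 without replicate 2, 3 and 4 or 2 and 4 without WT 24 h replicate 1 or 2, and 0 and 0 without any single dKO library. At 24 h 0 passed (median 0.12), and an unadjusted p below 0.05 was reached by 2 higher and 0 lower (3.92% and 3.05% of all tested genes).

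Other mRNAs with a 5′ pyrimidine tract had a median of 0.01 at 24 h and 0.39 at 48 h over 22 genes. At 48 h 1 of them rose, beside 3.19% of all tested genes called higher and 8.04% lower. This was Eef1d, a subunit of the elongation factor that reloads EF1A, which rose by 0.65 (adjusted p = 0.0396). The counts were 16 and 1 without WT 48 h replicate 1, and 0 rose without replicate 2 or any dKO library. Fau, which encodes a ribosomal protein fused to a ubiquitin-like protein, had a log2 fold change at 48 h of 0.46, and Rack1, a scaffold on the small subunit, of 0.60, and neither passed. In the list of 22 kinases and regulators of such mRNAs, 1 rose and 1 fell at 48 h, beside the same shares of all tested genes. Eif4ebp1, which encodes a repressor of cap-dependent translation released by mTOR, rose at 48 h (0.72, adjusted p = 0.017). Deptor, an inhibitor of mTOR, fell (-1.32, adjusted p = 0.0252). Mtor (-0.17), Larp1 (-0.31) and the growth regulator Myc (0.30) did not pass at 48 h. The median of this list at 48 h was -0.15 with all libraries, -0.26 without WT 48 h replicate 1 and 0.06 without WT 48 h replicate 2. The calls of Eif4ebp1 and Deptor did not hold together in fits without a dKO library, a WT 24 h replicate or WT 48 h replicate 2.

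Of 18 genes of nucleolar stress and ribosome surveillance, the p53 target Cdkn1a rose at both times. It was at 77.0 and 74.4 CPM in dKO against 24.8 and 25.1 CPM in WT at 24 h, and at 70.4 and 64.2 CPM in dKO against 47.0 and 44.3 CPM in WT at 48 h, with no overlap. It was higher by 1.6 on the log2 scale at 24 h (SE 0.138, adjusted p = 0.000597) and by 0.56 at 48 h (SE 0.132, adjusted p = 0.0275). Among 12 pseudogenes named for ribosomal proteins, Rpl34-ps1 fell at 48 h (-0.91, adjusted p = 0.0308), with a ratio to Csrp3 of 0.197 to 0.267. The median of the 12 was 0.23. Among all tested genes 0.361% were called higher and 0.0706% lower at 24 h, and 3.19% and 8.04% at 48 h. The call of Cdkn1a at 48 h was lost without any single dKO library or either WT 24 h replicate, and 9 pseudogenes rose and 1 fell without WT 48 h replicate 1.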

How the data were processed

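Bulk RNA-seq of 8 libraries was analysed as whole-number counts per gene symbol, which the authors deposited in 1 table. Trimming used cutadapt 1.18 and alignment used Bowtie2 2.2.5 with the mm10 genome, per the submitters' processing notes. Not given in the sources used here is how reads were assigned to genes (program, annotation, strand, molecular identifiers). A name on the table hints at 5′-end sequencing, which no label states, so counts may not span whole transcripts. An unnamed entry equal to the column total (50% of the column sum) was left out.

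All 8 libraries (5000952 to 21686236 counts) entered 1 fit with a mean per group in edgeR 4.0.16 (R 4.3.3): quasi-likelihood F test, two-sided, TMM scaling, filterByExpr with a minimum count of 10 (12742 genes kept), and Benjamini-Hochberg adjustment over all genes tested with a threshold of 0.05. SE was taken as |log2 fold change| divided by the root of the F statistic. CPM of single genes was scaled by TMM factors. Scripts were tested on simulated counts. No label ties libraries to separate animals, so p-values reflect only how these libraries spread, which may be technical.

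The members, lists and tests were chosen with earlier results of these data known, as were the 6 pathway lists. Named members are the near copies and partners, the stalk genes, Rpl5, Rpl11, Rps6, Rpsa, the 3 members of each subunit with the highest mean CPM, and for each of the 6 comparisons the 2 members of each subunit and direction with the smallest p. Of these, values that missed the threshold are given for some. Of pathway lists, up to 2 members per direction with the smallest p were named, and Mtor, Larp1, Myc, Fau and Rack1 always. Some genes that this rule names are not reported here. Heatr3, Csrp3, Rpl38, Rpl28, Rpl35 and Rps12 were added after values were seen. Alternatives were library-size, RLE and member-free TMM scaling, DESeq2 1.42.0, other filters, a fit of the compared groups alone, a replicate block and leaving out each library. Adding copies to their parent genes was chosen after seeing the data. Sequences were aligned with Biopython 1.88. Gene positions and lengths came from GENCODE M21.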

Additional observations from a re-analysis of the deposited data

How the results depend on the processing

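Counts of called members depended on the libraries and the scaling. At 24 h 1 member was called higher with no filter on low counts and when only the groups compared entered, and 0 to 1 when 1 library was left out. At 48 h 19 were called higher under library-size scaling, 9 in DESeq2, 9 with no filter and 0 with a mean of at least 50 counts, where Rps4l is not tested, and with 1 library left out 0 to 73 were called higher and 0 to 1 lower. Over both times the counts called higher were 3 under library-size scaling, 2 in DESeq2, 4 with no filter, 0 with a mean of at least 50 counts and 1 to 67 with 1 library left out. Called lower over both times were 2 with no filter and 0 to 2 with 1 library left out. In the interaction 0 to 36 were higher and 0 to 1 lower with 1 library left out. For 48 h against 24 h in WT, 5 were called higher with no filter, 0 with only the groups compared, 2 with copies added to their parent genes and 1 to 31 with 1 library left out. Called lower there were 20 under library-size scaling and 0 to 26 with 1 library left out. For dKO the counts called higher were 2 in DESeq2, 2 with no filter, 47 with only the groups compared and 0 to 9 with 1 library left out. Of all tested genes, 0.635% were called higher at 24 h with no filter and 4.09% at 48 h. With no filter 3.16% were higher and 6.69% lower over both times, and 6.13% were higher over time in WT and 3.83% in dKO. With only the groups compared, 1.05% were higher at 24 h and 0.219% over time in WT. Over both times, 5.42% were higher under library-size scaling and 1.81% in DESeq2. With copies added, 7.92% were higher over time in WT. The cause of these changes was not tested.

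The replicate numbers are shared between groups, but same-numbered libraries did not deviate together (r = -0.13 at 24 h and -0.07 at 48 h, 2 pairs each), so the block is given for completeness: with it the members called were 0 at 24 h and, as without it, 1 higher and 1 lower at 48 h. Under the block Rpl22l1 at 24 h was 0.0083. Rps6 at 24 h was -0.0013 with a mean of at least 50 counts and -0.00066 with only the groups compared. Under library-size scaling at 48 h Rps29 was 0.16 and Rpl22l1 0.13.

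With 1 library left out, log2 fold changes of some uncalled members crossed 0. At 24 h the range was -0.63 to 0.027 for Rpl10l, -0.32 to 0.19 for Rps15a, -0.28 to 0.26 for Rpl22l1, -0.028 to 0.12 for Rpl10, -0.039 to 0.070 for Rps6 and -0.036 to 0.013 for Rpsa. At 48 h it was -0.27 to 0.24 for Rps29, -0.17 to 0.64 for Rpl22, -0.41 to 0.39 for Rpl22l1, -0.18 to 1.01 for Rps27 and -0.21 to 0.67 for Rplp1. In the interaction it was -0.61 to 0.16 for Rpl32l and -0.52 to 0.0088 for Rps29, and in dKO over time -0.97 to 1.31 for Rpl3l and -0.41 to 0.18 for Rps4l. A count of 0 allows 3 counts, or 0.138 to 0.600 CPM per library, so depth limits Rpl3l, Rpl39l and Rps4l.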
